A study of Mus musculus with 28 samples.

Results

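The 10 genes described here, *Apoe*, *Apoc1*, *Abca1*, *Abcg1*, *Lpl*, *Nr1h2*, *Nr1h3*, *Rxra*, *Mylip* and *Soat1*, form the apolipoprotein E and liver X receptor (LXR) branch of cholesterol efflux. They are named members of a known pathway, picked with earlier results of these data known, and are 10 of the 48587 genes in the count table of hippocampal microglia from 28 mice. The libraries came from FACS-isolated CD11b+CD45low cells, from which the study's gate excluded cells stained for lymphocyte markers, Ly6C or Ly6G, and each library was 1 mouse, aged 16 weeks. 5xFAD mice carry mutant human APP and presenilin 1 transgenes in neurons under the Thy-1 promoter, are heterozygous on a C57BL/6 J background, and were compared with non-transgenic (WT) mice. According to the methods of the study all mice were male. The mice were colonized and specific pathogen free (SPF), germ-free (GF), or SPF mice that drank an antibiotic cocktail (ABX) of vancomycin, cefoxitin, gentamicin and metronidazol for the last 8 weeks. Of the WT mice 5 were SPF, 4 GF and 5 ABX, and of the 5xFAD mice 3 were SPF, 5 GF and 6 ABX. GF mice came from another facility than the other mice, so that GF housing and facility cannot be told apart.

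Microglia hold cholesterol from membranes and myelin that they cannot break down, and either store it as esters or export it. Oxysterols, which are oxidized cholesterol, bind LXR-beta (*Nr1h2*) or LXR-alpha (*Nr1h3*), which pair with a retinoid X receptor such as *Rxra* on DNA and raise transcription of the exporters *Abca1* and *Abcg1*, of *Apoe*, *Apoc1* and *Lpl*, and of *Mylip*. *Abca1* and *Abcg1* load cholesterol onto APOE particles, *Lpl* splits triglycerides of lipoproteins, *Mylip* encodes IDOL, a ubiquitin ligase that sends lipoprotein receptors to degradation, and *Soat1* esterifies cholesterol for storage in droplets. In microglia near amyloid plaques *Apoe* and *Lpl* are well known as genes of the disease-associated state.

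Before the values, the stretches of DNA next to which LXR target genes begin are shown for 3 genes that moved with GF housing below. LXR and its partner are known to bind a repeat of AGGTCA with 4 bases between the copies, written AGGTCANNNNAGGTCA, and this pattern was searched on both strands in the 250 bases before each start in the RefSeq promoter table (GRCm38.p6), counting mismatches at its 12 fixed letters. The starts used here are those at which the count table also begins the gene. Each sequence reads 5′ to 3′ along the gene, and capitals mark a match with at most 3 mismatches.
*Abca1*, chr4:53159896-53160145, minus strand: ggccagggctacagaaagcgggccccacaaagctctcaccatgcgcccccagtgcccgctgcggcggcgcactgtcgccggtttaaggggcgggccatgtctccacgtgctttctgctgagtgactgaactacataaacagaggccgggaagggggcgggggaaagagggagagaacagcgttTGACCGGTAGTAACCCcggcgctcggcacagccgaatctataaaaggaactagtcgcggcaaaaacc
*Apoe*, chr7:19699189-19699438, minus strand: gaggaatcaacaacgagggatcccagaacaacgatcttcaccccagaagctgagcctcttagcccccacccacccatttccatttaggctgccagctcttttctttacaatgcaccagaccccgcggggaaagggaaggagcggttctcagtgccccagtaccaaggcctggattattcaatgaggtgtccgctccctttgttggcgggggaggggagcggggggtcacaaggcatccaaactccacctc
*Mylip*, chr13:45389492-45389741, plus strand: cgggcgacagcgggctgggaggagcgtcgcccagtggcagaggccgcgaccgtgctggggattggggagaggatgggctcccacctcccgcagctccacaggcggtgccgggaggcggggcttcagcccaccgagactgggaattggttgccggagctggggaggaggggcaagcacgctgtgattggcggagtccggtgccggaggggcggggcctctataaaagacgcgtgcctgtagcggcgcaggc
The match before *Abca1* had 3 mismatches, lay on the opposite strand and ended 51 bases before the start. The nearest stretch before *Apoe* had 5 mismatches and that before *Mylip* had 6, so no letters are capitalized in them. Of all 32851 promoter windows of that length, 18.5% held a match with at most 3 mismatches and 2.57% one with at most 2, so that a match at this level is common. Of the 10 genes, 7 were found in the table with 11 windows, and 2 of these windows held a match with at most 3 mismatches, the other lying before a downstream start of *Rxra*. The windows describe letters, and no binding was measured.

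The libraries held 14441610 to 29977395 reads. The summed level of 8 microglial markers was 45235 to 64590 CPM, counts scaled to a common library total, over the 28 mice, and all 8 were detected in each. It was 57785 to 64590 CPM in WT and 45235 to 55906 CPM in 5xFAD mice, without overlap, and 4 of the 5 GF 5xFAD mice were lowest (45235 to 46698 CPM), with FAD_GF_201 at 55296 CPM. The 6 markers of border-associated macrophages, which express *Apoe* as well, were highest by their median in ABX 5xFAD mice, at 32.8 to 242 CPM. They summed to 9.43 to 77.0 CPM in the GF and 15.3 to 28.3 CPM in the SPF mice of that genotype, and to 3.74 to 5.90, 10.7 to 41.9 and 3.48 to 8.09 CPM in ABX, GF and SPF mice that were WT, and all 6 were detected in every SPF and ABX 5xFAD mouse. The 6 astrocyte markers summed to at most 23.7 CPM, in an ABX 5xFAD mouse. The 6 neutrophil markers summed to 56.5, 147 and 221 CPM in the 3 SPF 5xFAD mice, where 4 to 6 of them were detected, to 117 CPM in FAD_ABX_1151 and to at most 0.285 CPM in the other mice. The 4 monocyte markers summed to 15.5 to 38.9 CPM in SPF, 5.98 to 24.9 CPM in GF and 14.4 to 51.9 CPM in ABX 5xFAD mice, against 6.13 to 8.42, 3.40 to 16.5 and 2.08 to 9.05 CPM in the WT mice of these states. The library descriptions are numbered in 3 ways. The first is that of the SPF and ABX mice that were WT, the second that of the 3 SPF 5xFAD mice with FAD_ABX_1151, and the third that of every GF mouse and of 5 ABX 5xFAD mice. Mouse FAD_GF_201 is 5xFAD by title and genotype and WT by its description, and was kept as 5xFAD.

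*Apoe* (chromosome 7, 19696109 to 19699188, minus strand) encodes the main lipid carrier protein of the brain, and was the most abundant of the 10 genes per kilobase of transcript. Here and below, levels of single genes are CPM scaled by TMM, a normalization on the bulk of genes. In SPF WT mice its level was 278, 301, 444, 476 and 518 CPM, in GF WT mice 405, 749, 922 and 955 CPM, and in ABX WT mice 293, 311, 348, 361 and 451 CPM. In SPF 5xFAD mice it was 3342, 4204 and 4879.7 CPM, in GF 5xFAD mice 5321, 9253, 9329.6, 9596 and 10154 CPM, and in the 6 ABX 5xFAD mice 2922 (lowest), 4163 (median) and 6434 (highest) CPM. Every 5xFAD mouse lay above every WT mouse, and GF mice lay high within their genotype except WT_GF_199, at 405 CPM, and FAD_GF_201, at 5321 CPM, which overlapped with colonized or ABX mice. FAD_GF_201 still lay above all SPF 5xFAD mice. Ordered by their means, the groups were ABX WT (353 ± 61.4), SPF WT (403 ± 108), GF WT (758 ± 252), SPF 5xFAD (4142 ± 771), ABX 5xFAD (4479 ± 1243) and GF 5xFAD mice (8731 ± 1939 CPM, mean ± SD). Neighbours within a genotype that differed by less than their spread were ABX WT and SPF WT, and SPF 5xFAD and ABX 5xFAD. In bulk RNA of sorted cells, a change in the number of cells that express a gene and a change in the RNA of each cell cannot be told apart.

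*Apoc1* (chromosome 7, 19689481 to 19692660, minus strand), the small apolipoprotein gene that follows *Apoe* on the chromosome, was close to the limit of detection, with 0 to 38 reads a library and 0 reads in 3 WT mice, where a count of 0 allows up to 3 reads. Its highest level was 2.41 CPM, in mouse FAD_ABX_1482, and its group means were 0.108 to 0.18 CPM in WT and 0.451 to 0.881 CPM in 5xFAD mice. Per kilobase of the exon length in the table, its group means were 0.146 to 1.18 CPM, where those of *Apoe* were 165 to 4084 CPM.

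Of the exporters, *Abca1* (chromosome 4, 53030787 to 53159895, minus strand) was at 352, 414, 476, 509 and 527 CPM in SPF WT, 266, 272, 306 and 427 CPM in GF WT and 267, 346, 379, 406 and 424 CPM in ABX WT mice. It was at 257, 491 and 509 CPM in SPF 5xFAD, 194, 207, 259, 263 and 323 CPM in GF 5xFAD, and 290.3 (lowest), 374 (median) and 635 (highest) CPM in ABX 5xFAD mice. The lowest values were those of GF 5xFAD mice, and the groups overlapped, since SPF 5xFAD mouse FAD_SPF_1144, at 257 CPM, lay among the GF mice. *Abcg1* (chromosome 17, 31057698 to 31115777, plus strand) kept to a narrow band from 98.4 to 166 CPM over all mice, with group means from 121 ± 12.4 in ABX 5xFAD to 140.0 ± 1.63 CPM in SPF 5xFAD mice. Its group means differed by less than the range within ABX WT mice (119 to 166 CPM).

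*Lpl* (chromosome 8, 68880491 to 68907448, plus strand) was low in WT mice, at 29.1, 35.4, 39.4, 41.5 and 43.2 CPM in SPF, 30.7, 41.0, 62.7 and 78.4 CPM in GF and 23.9, 27.7, 33.5, 43.3 and 45.2 CPM in ABX mice. In 5xFAD mice it was at 479, 523 and 782 CPM in SPF, 635, 684, 935, 963 and 1008 CPM in GF, and 368 (lowest), 466 (median) and 758 (highest) CPM in ABX mice. As with *Apoe*, WT and 5xFAD mice did not overlap. The ranges of SPF, GF and ABX mice overlapped within each genotype.

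Among the receptors, *Nr1h2* (chromosome 7, 44549616 to 44553951, minus strand) was the LXR of these cells by level. Its means were highest in GF mice, 95.8 ± 15.6 CPM in WT and 97.6 ± 8.78 CPM in 5xFAD. They were 65.8 ± 3.37 and 66.3 ± 5.88 CPM in SPF mice and 57.5 ± 14.0 and 81.8 ± 13.7 CPM in ABX mice of the same genotypes. All GF WT mice (76.6 to 111 CPM) lay above all SPF WT mice (61.4 to 70.6 CPM), and all GF 5xFAD mice (88.4 to 109.7 CPM) above all SPF 5xFAD mice (62.4 to 73.1 CPM). *Nr1h3* (chromosome 2, 91184061 to 91202834, minus strand) had 2 to 74 reads a library, 0.115 to 3.02 CPM, and shares 34 exon bases with the gene model *Gm13783* on the same strand. Per kilobase of the exon length in the table, the group means of *Nr1h2* were 17.1 to 29.1 CPM and those of *Nr1h3* 0.339 to 0.754 CPM. *Rxra* (chromosome 2, 27676440 to 27762957, plus strand), the shared partner, was at 51.1 to 103 CPM with overlapping groups throughout, and its highest value came from mouse WT_GF_199.

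*Mylip* (chromosome 13, 45389742 to 45412019, plus strand) ran in the other direction. It was at 412, 415, 416, 416 and 457 CPM in SPF WT, 274, 285, 326 and 328 CPM in GF WT and 415, 426, 445, 455 and 473 CPM in ABX WT mice. It was at 303, 328 and 346 CPM in SPF 5xFAD, 161, 201.1, 209.7, 256 and 258 CPM in GF 5xFAD, and 284 (lowest), 315 (median) and 394 (highest) CPM in ABX 5xFAD mice. In either genotype no GF mouse reached the lowest SPF or ABX mouse, and in each microbial state no 5xFAD mouse reached the lowest WT mouse. *Soat1* (chromosome 1, 156424525 to 156474331, minus strand), the esterifying enzyme, was at 116 to 127 CPM in SPF WT and 173 to 210.3 CPM in SPF 5xFAD mice. Under GF conditions the ranges were 96.8 to 115 and 178 to 232 CPM, and under ABX 111 to 131 and 161 to 218 CPM. Here too the genotypes did not overlap. Per kilobase, the means in SPF WT mice ran from 189 CPM for *Apoe* over 138 for *Mylip*, 44.0 for *Abca1*, 34.3 for *Abcg1*, 19.6 for *Nr1h2*, 13.4 for *Rxra*, 12.4 for *Soat1* and 3.60 for *Lpl* to 0.357 for *Nr1h3* and 0.162 for *Apoc1*. In GF 5xFAD mice *Lpl* (80.6 CPM per kilobase) stood next after *Apoe* (4084), above *Mylip* (70.9).

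**Figure D1:**
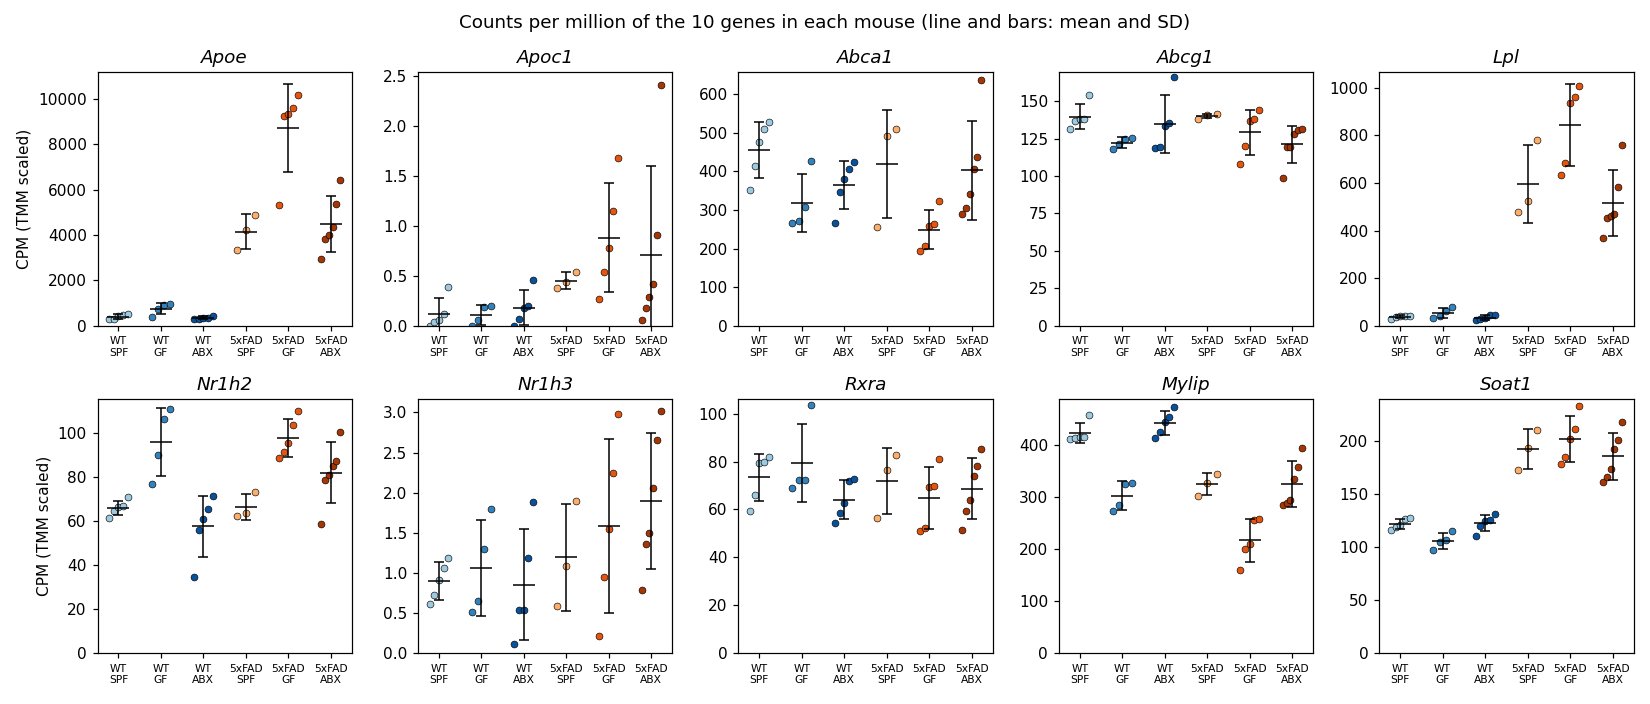
Level of each of the 10 genes in each mouse (points), in CPM scaled by TMM on linear axes that start at 0, by genotype and microbial state, with the mean (line) and SD (bars) of each group. The 5xFAD mice sit above the WT mice for Apoe, Lpl and Soat1, and Mylip is lowest in GF 5xFAD mice, at 161 to 258 CPM.

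The comparison of 5xFAD with WT mice asks how the amyloid model changes these genes, separately in SPF, GF and ABX mice. *Apoe* and *Lpl* rose more than 10-fold in all 3 states, *Soat1* rose by less than 2-fold, *Mylip* fell in GF and ABX mice, and the exporters *Abca1* and *Abcg1* passed the test in none. In SPF mice 3 of the 10 genes were called at an adjusted p under 0.05 by edgeR's quasi-likelihood test, against 4.57% of the 15298 genes tested. In GF mice 4 were called, against 15.6%, and in ABX mice 5, against 14.4%. By direction, the 10 genes held 3 higher and 0 lower calls under SPF, 3 and 1 under GF, and 4 and 1 under ABX conditions. Over all genes tested the higher calls made up 3.73%, 9.43% and 9.45% under SPF, GF and ABX conditions, and the lower calls 0.837%, 6.2% and 4.98%. Scaling by the library size alone changed that split over all genes from 571 higher and 128 lower to 533 and 215 in SPF mice, from 1442 and 949 to 1107 and 1919 in GF mice, and from 1445 and 762 to 1160 and 1311 in ABX mice, and it reversed no call of the 10 genes. The median log2 fold change of the 10 genes was 0.21, 0.33 and 0.55 in SPF, GF and ABX mice, beside -0.027, -0.025 and -0.013 over all genes tested.

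For the lipid carrier and the lipase the ratios of group means were large. *Apoe* was 10.3 times as high in 5xFAD as in WT mice under SPF, 11.5 times under GF and 12.7 times under ABX conditions, with log2 fold changes of 3.36 ± 0.25, adjusted p = 6.46e-11, 3.53 ± 0.26, adjusted p = 3.1e-11 and 3.67 ± 0.23, adjusted p = 1.86e-12 (log2 fold change ± SE, edgeR). *Lpl* was 15.8, 15.9 and 14.9 times as high in the same order, with log2 fold changes of 3.98 ± 0.25, 3.99 ± 0.27 and 3.89 ± 0.24 and an adjusted p of at most 4.86e-12 (edgeR). Under ABX conditions these rises came together with the summed border-associated macrophage markers (32.8 to 242 CPM in 5xFAD, 3.74 to 5.90 CPM in WT mice) and the monocyte markers (14.4 to 51.9 against 2.08 to 9.05 CPM). Under SPF conditions they came together with the border-associated macrophage markers (15.3 to 28.3 against 3.48 to 8.09 CPM) and the neutrophil markers (56.5 to 221 against at most 0.177 CPM). The summed monocyte markers were also higher (15.5 to 38.9 against 6.13 to 8.42 CPM), mostly through *Chil3*, at means of 17.0 and 0.00839 CPM. Outside SPF 5xFAD mice *Chil3* was highest in an ABX 5xFAD mouse, at 8.45 CPM. *Ccr2* had means of 8.22 and 6.20, *Ly6c2* of 0.476 and 0, and *Plac8* of 0.406 and 1.10 CPM in SPF 5xFAD and WT mice. In GF mice the macrophage markers overlapped between 5xFAD (9.43 to 77.0 CPM) and WT (10.7 to 41.9 CPM). The summed microglial markers were lower in 5xFAD than in WT mice in all 3 states. The part of these markers in the results was not tested. The GF mice of both genotypes share 1 numbering style, whereas in SPF and in ABX mice no style holds both genotypes, so that style and genotype cannot be told apart there.

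*Soat1*, which stores cholesterol as ester, was 1.58 times as high in SPF, 1.90 times in GF and 1.51 times in ABX 5xFAD mice (log2 fold change 0.66 ± 0.10, adjusted p = 3.85e-05, 0.93 ± 0.094, adjusted p = 2.16e-08 and 0.60 ± 0.084, adjusted p = 6.76e-06, edgeR). *Mylip* fell in 5xFAD mice under GF (-0.48 ± 0.11, adjusted p = 0.00209) and ABX conditions (-0.44 ± 0.10, adjusted p = 0.00225, edgeR). Its log2 difference in SPF mice was -0.38 ± 0.12, adjusted p = 0.07, and it passed the threshold there with DESeq2 (0.0455), with voomWithQualityWeights (0.000202), when only the SPF groups were fitted (0.00534) and with library size alone (0.0412). Without mouse FAD_GF_182, which belongs to neither SPF group but enters the shared spread, it also passed (0.0371, edgeR).

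The exporters and receptors gave differences close to 0 or with wide errors. For SPF, GF and ABX mice in turn, *Abca1* had log2 differences of -0.12 ± 0.23, -0.35 ± 0.21 and 0.14 ± 0.19, and *Abcg1* of 0.0033 ± 0.11, 0.079 ± 0.10 and -0.15 ± 0.089, with adjusted p of 0.275 or more for both genes (edgeR). *Rxra* had -0.03 ± 0.17, -0.29 ± 0.16 and 0.10 ± 0.14 in the same order. *Nr1h2* was 0.51 ± 0.14, adjusted p = 0.0111 in ABX mice, a call that was lost when only the ABX groups were fitted (adjusted p = 0.0639, edgeR), and it was 0.012 ± 0.16 in SPF and 0.027 ± 0.15 in GF mice. *Nr1h3* had 0.41 ± 0.66, 0.58 ± 0.62 and 1.13 ± 0.56. *Apoc1* had 1.83 ± 1.04, 3.02 ± 1.08 and 1.92 ± 0.90, and was under 0.05 in SPF mice with voomWithQualityWeights (2.42, adjusted p = 0.0254). Its adjusted p of 0.055 in GF mice (edgeR) went under 0.05 with DESeq2 (0.0257), with voomWithQualityWeights (0.0406) and without any 1 of mice FAD_ABX_1151 (0.0455), FAD_ABX_1482 (0.0373), FAD_GF_182 (0.047), WT_ABX_923 (0.045), WT_SPF_928 (0.0471) or WT_SPF_936 (0.0495).

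**Figure D2:**
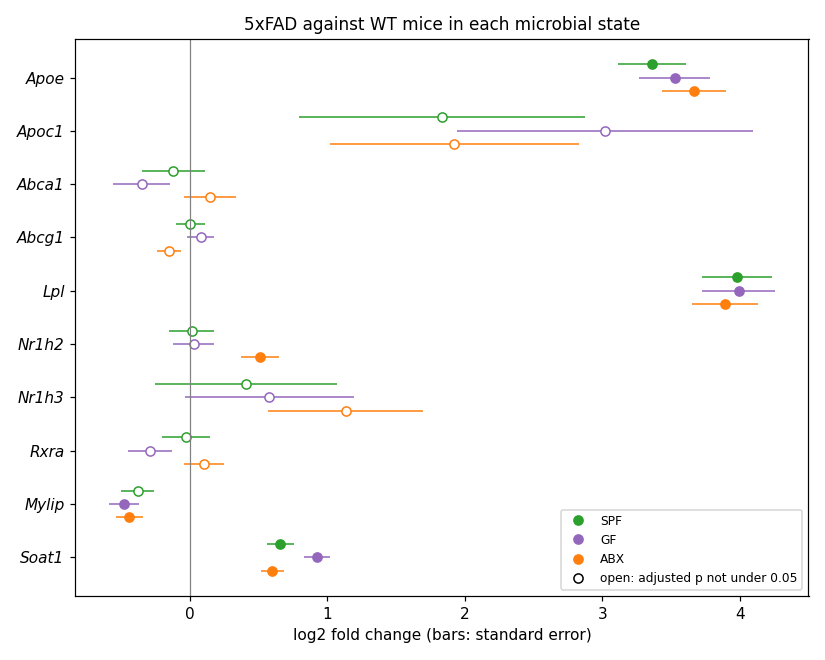
Log2 fold change of each gene in 5xFAD against WT mice under SPF, GF and ABX conditions, with the standard error as bars and filled points for adjusted p under 0.05. Apoe and Lpl lie between 3.36 and 3.99, Soat1 between 0.60 and 0.93, and Abcg1 next to 0 in all 3 comparisons.

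Whether the size of the 5xFAD difference depended on the microbial state was tested by the difference between the genotype effects. None of the 10 genes passed in any of the 3 tests by edgeR, DESeq2 or voomWithQualityWeights. Over all genes tested the calls were 0% for GF against SPF mice, 0% for ABX against SPF mice and 1.76% for ABX against GF mice. At an unadjusted p under 0.05 there were 0, 1 and 2 of the 10 genes for GF against SPF, ABX against SPF and ABX against GF mice, beside 8.52%, 6.75% and 15.9% of all genes tested. The lowest adjusted p was that of *Soat1* for ABX against GF mice (log2 difference of the effects -0.33 ± 0.12, adjusted p = 0.172, edgeR), and *Abca1* had 0.50 ± 0.28, adjusted p = 0.397 there (edgeR). A p above the threshold does not show that the effects were equal.

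The comparison of GF with SPF mice of the same genotype asks how the absence of microbes changes these genes. All GF mice are of the third numbering style, SPF WT mice of the first and SPF 5xFAD mice of the second, so that style and GF housing cannot be told apart in either genotype. In 5xFAD mice *Apoe* and *Nr1h2* were higher and *Abca1* and *Mylip* lower under GF conditions, and in WT mice *Apoe* was higher and *Mylip* lower. In 5xFAD mice 4 of the 10 genes were called, against 12.8% of all genes tested, and in WT mice 2, against 1.62% (edgeR, adjusted p under 0.05). *Mylip* fell to 0.666 of the SPF mean in 5xFAD (-0.59 ± 0.12, adjusted p = 0.00276) and to 0.716 in WT mice (-0.48 ± 0.11, adjusted p = 0.0218, edgeR). By an exact two-sided permutation test on log2 CPM, p was 0.00794 for *Mylip* in WT mice, the smallest that 4 against 5 mice can give, and 0.0595 after adjustment over the 90 such tests made for the 10 genes. In 5xFAD mice the exact p was 0.0357, where 0.0179 is the smallest possible, and 0.111 after the same adjustment. The WT call was lost without mouse WT_GF_229 (adjusted p = 0.111) or WT_SPF_936 (0.0597, edgeR), while the 5xFAD call by edgeR held without any 1 of the 28 mice and in every alternative fit tried.

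*Apoe*, the carrier, was 2.11 times as high in GF as in SPF 5xFAD mice (1.08 ± 0.26, adjusted p = 0.00731) and 1.88 times as high in WT mice (0.91 ± 0.23, adjusted p = 0.0362, edgeR). The 5xFAD call was lost without mouse FAD_SPF_1148 (adjusted p = 0.0713, edgeR). The WT call was lost without WT_GF_229 (0.154), WT_GF_230 (0.122), WT_GF_231 (0.0861), WT_SPF_912 (0.105), WT_SPF_926 (0.0596) or WT_SPF_936 (0.0992, adjusted p, edgeR). By the exact permutation test *Apoe* had p = 0.0179 in 5xFAD mice, the smallest possible (0.0618 adjusted over the 90 tests), and p = 0.0635 in WT mice, where the groups overlapped (0.163 adjusted). Of the 90 exact tests only those of *Apoe*, *Lpl* and *Soat1* for 5xFAD against WT ABX mice and of *Mylip* for ABX against GF 5xFAD mice had an adjusted p under 0.05, each at 0.0487. The summed border-associated macrophage markers were 10.7 to 41.9 CPM in GF WT against 3.48 to 8.09 CPM in SPF WT mice, and their part in the WT result was not tested. They overlapped between GF (9.43 to 77.0) and SPF 5xFAD mice (15.3 to 28.3). The neutrophil markers were 56.5 to 221 CPM in SPF and at most 0.0495 CPM in GF 5xFAD mice, although the gate excluded Ly6G-stained cells, and their part in the GF results of this genotype was not tested.

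*Abca1*, the exporter to lipid-poor APOE, went down to 0.595 of the SPF mean in GF 5xFAD mice (-0.75 ± 0.22, adjusted p = 0.0262, edgeR). By this fit the carrier rose and its loading transporter fell in the same comparison. With gene length offsets the difference of *Abca1* was -0.44 and no longer called (adjusted p = 0.117, edgeR). *Soat1*, of like exon length (9791 bases against 10363 for *Abca1* and 2138 for *Apoe*), moved from 0.07 to 0.35 with these offsets. The part of gene length in the result was not tested. The call on *Abca1* was also lost without FAD_GF_182 (0.0585), FAD_GF_184 (0.0564), FAD_SPF_1146 (0.161) or FAD_SPF_1148 (0.15, adjusted p, edgeR). The exact permutation p for this gene was 0.0714, 0.179 after adjustment over the 90 tests. In WT mice its log2 difference was -0.52 ± 0.21, adjusted p = 0.197 (edgeR), under 0.05 with voomWithQualityWeights (0.0142) and when only the 2 groups were fitted (0.0294).

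*Nr1h2*, which encodes LXR-beta, was 1.47 times as high in GF as in SPF 5xFAD mice (0.56 ± 0.17, adjusted p = 0.0261) and 1.46 times in WT mice (0.54 ± 0.15, adjusted p = 0.0585, edgeR), and the groups did not overlap in either genotype (exact permutation p = 0.0179 and 0.00794, 0.0618 and 0.0595 adjusted). The WT value passed the threshold with DESeq2 (0.0134) and voomWithQualityWeights (0.00184), when only the 2 groups were fitted (0.00725), over genes with at least 10 reads in every library (0.0431), and also without any 1 of mice FAD_ABX_1151 (0.0281), FAD_ABX_1482 (0.0393), WT_ABX_911 (0.0149), WT_ABX_923 (0.0449) or WT_GF_199 (0.0266, edgeR). The 5xFAD call was lost with library size alone (0.0612) and without FAD_GF_182 (0.0583), FAD_GF_184 (0.0504), FAD_SPF_1144 (0.0842), FAD_SPF_1146 (0.0655) or FAD_SPF_1148 (0.133, adjusted p, edgeR). *Lpl* had log2 differences of 0.51 ± 0.25, adjusted p = 0.192 in 5xFAD and 0.50 ± 0.23, adjusted p = 0.276 in WT mice (edgeR), the former under 0.05 with voomWithQualityWeights (0.0016). *Soat1* had 0.07 ± 0.10 and -0.20 ± 0.093, *Abcg1* -0.12 ± 0.11 and -0.19 ± 0.10, and *Rxra* -0.15 ± 0.17 and 0.11 ± 0.16 in 5xFAD and WT mice, without a call by this test. With gene length offsets *Soat1* was called in 5xFAD mice for GF against SPF (0.35, adjusted p = 0.0254) and for ABX against GF mice (-0.28, adjusted p = 0.0287, edgeR).

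ABX mice were compared with SPF and with GF mice to see whether removal of microbes in adult life has the effect of lifelong absence. Against SPF mice, 0 of the 10 genes were called by edgeR, DESeq2 or voomWithQualityWeights in either genotype. None had an unadjusted p under 0.05 by edgeR, which called 0% of all genes tested in 5xFAD and 0% in WT mice. The 3 SPF 5xFAD mice are of the second numbering style and 5 of the 6 ABX 5xFAD mice of the third. Their neutrophil markers had medians of 147 (SPF) and 0.158 CPM (ABX), and their border-associated macrophage markers of 24.9 and 145 CPM. The part of style and markers was not tested, and a p above the threshold does not show that the groups were equal. Against GF mice, which are also the GF mice of the comparison above and in WT differ from ABX mice in numbering style, 4 of the 10 genes were called in 5xFAD mice, against 10.6% of all genes, and 3 in WT mice, against 6.88%. *Mylip* was higher in ABX than in GF mice, both in 5xFAD (0.59 ± 0.10, adjusted p = 0.000673) and in WT mice (0.55 ± 0.11, adjusted p = 0.00443), and *Apoe* was at 0.513 (-0.96 ± 0.20, adjusted p = 0.00391) and 0.465 of the GF mean (-1.10 ± 0.23, adjusted p = 0.0048, edgeR). *Nr1h2* was lower in ABX than in GF WT mice (-0.74 ± 0.15, adjusted p = 0.00462), with -0.25 ± 0.13, adjusted p = 0.236 in 5xFAD mice (edgeR). In WT mice these 3 genes were thus called against GF and not against SPF mice, in comparisons that share the ABX mice. The summed border-associated macrophage markers were 3.74 to 5.90 CPM in ABX and 10.7 to 41.9 CPM in GF WT mice, lower without overlap as *Apoe* was on average, and 32.8 to 242 (median 145) and 9.43 to 77.0 CPM (median 21.5) in ABX and GF 5xFAD mice, where *Apoe* was lower and these markers were higher by their median. Their part in the results was not tested.

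*Lpl* was lower (-0.71 ± 0.20, adjusted p = 0.0233) and *Abca1* higher (0.69 ± 0.19, adjusted p = 0.0191) in ABX than in GF 5xFAD mice (edgeR). Within the third numbering style, that is without mouse FAD_ABX_1151, *Apoe* and *Mylip* were still called and these 2 genes were not, with log2 differences of -0.67, adjusted p = 0.0589 for *Lpl* and 0.52, adjusted p = 0.0674 for *Abca1* (edgeR). Both were also lost when only the 2 groups were fitted (0.0538 and 0.0623). *Lpl* was also lost without FAD_ABX_1452 (0.0585), FAD_GF_181 (0.0665), FAD_GF_182 (0.0574) or FAD_GF_185 (0.0547), and *Abca1* without FAD_GF_182 (0.0539) or FAD_GF_184 (0.0529). In WT mice *Lpl* was -0.61 ± 0.23, adjusted p = 0.105 (edgeR), and passed without mouse WT_GF_199 (0.0323).

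**Figure D3:**
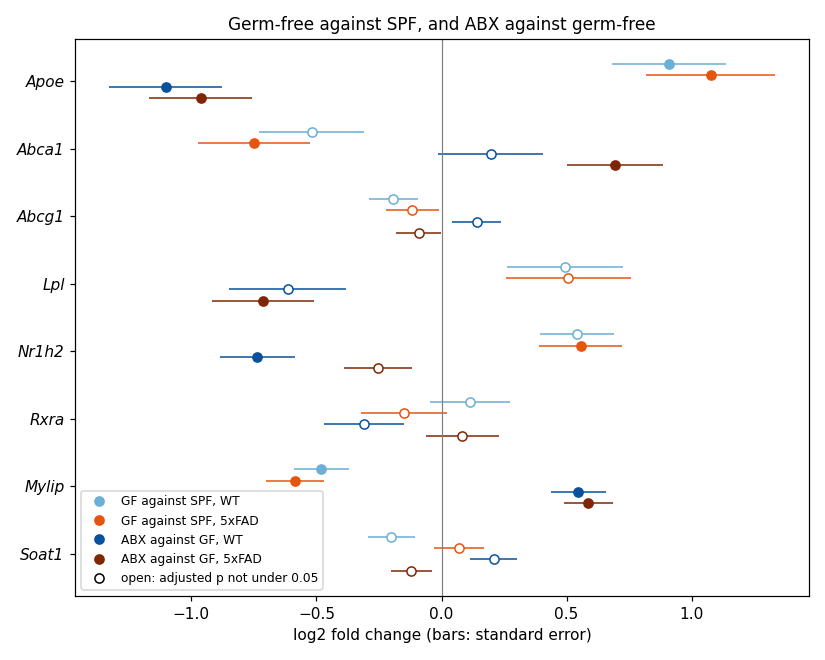
Log2 fold change of 8 of the genes (without Apoc1 and Nr1h3, which had few reads) for GF against SPF and for ABX against GF mice in each genotype, with the standard error as bars and filled points for adjusted p under 0.05. The comparisons share the GF mice. Mylip lies at -0.59 and -0.48 for GF against SPF mice, and Apoe at 1.08 and 0.91.

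**Figure D4:**
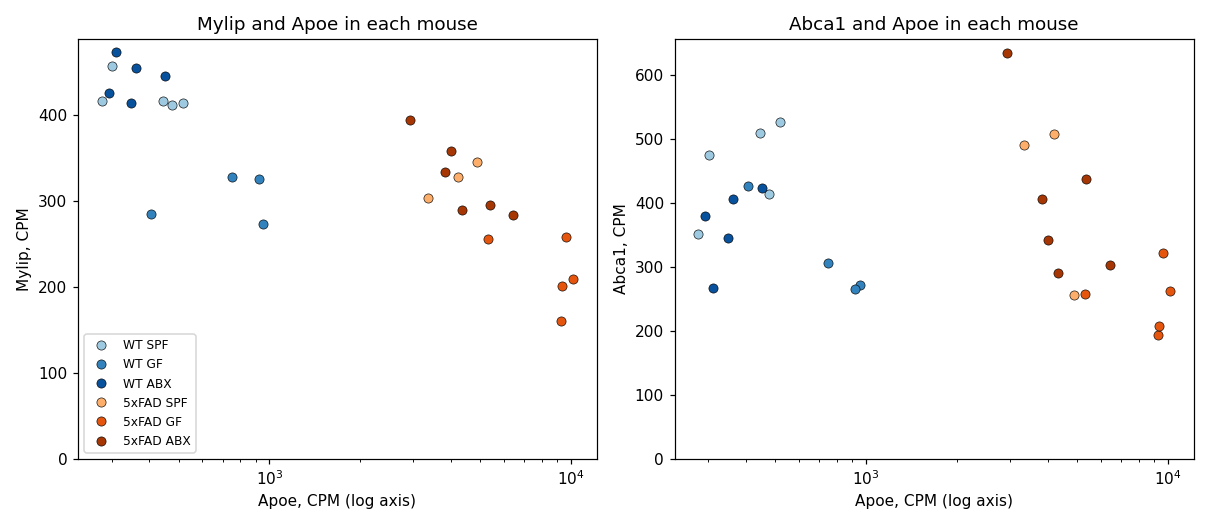
Mylip (left) and Abca1 (right) plotted against Apoe in each of the 28 mice, in CPM scaled by TMM, with Apoe on a log axis and the other axes from 0. The genotypes form separate clouds along Apoe, Mylip is lowest in the GF mice of either cloud, and Abca1 spreads from 194 to 635 CPM.

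Likeness to *Apoe* was described by Pearson's r of log2 CPM over the 28 mice, which fall into separate genotypes and share the normalization. Among the 10 genes r was 0.976 for *Lpl*, 0.883 for *Soat1*, 0.712 for *Apoc1*, 0.567 for *Nr1h2* and 0.400 for *Nr1h3*, and -0.177 for *Rxra*, -0.198 for *Abcg1*, -0.378 for *Abca1* and -0.784 for *Mylip*. The 5 tested genes outside the set with the highest r were *Lyz2* (0.990), which encodes lysozyme, *Chst2* (0.987), a sulfotransferase gene, *Psat1* (0.987), of serine synthesis, *Gusb* (0.984), a lysosomal glucuronidase gene, and *Axl* (0.982), a receptor for dying cells. *Axl* rose with *Apoe* from a mean of 18.6 CPM in SPF WT to 822 CPM in GF 5xFAD mice.

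The wider pathway was described by 52 further genes in 7 lists, of which 39 had enough reads to be tested. Of these 39, 5xFAD mice had 7 higher and 1 lower than WT mice under SPF, 11 and 2 under GF, and 15 and 0 under ABX conditions, beside the shares of all genes given above. Over the alternatives and left-out mice the counts called were 5 to 11, 12 to 16 and 12 to 16 in this order, with 5 in SPF mice without FAD_SPF_1146. The medians of their log2 fold changes were 0.065, 0.11 and 0.28 in this order. The largest rise was that of *Ch25h*, whose enzyme makes the LXR ligand 25-hydroxycholesterol. It went from group means of 0.269 to 0.667 CPM in WT to 33.3 to 60.1 CPM in 5xFAD mice (log2 fold change 6.89 ± 0.67, 6.55 ± 0.67 and 6.35 ± 0.62 in SPF, GF and ABX mice, adjusted p of at most 2.4e-08, edgeR). In ABX mice the value was 9.01 without WT_ABX_910 and 7.41 with voomWithQualityWeights. Of the 5 oxysterol enzymes 3 were tested, and *Ch25h* was the only one of them called.

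Among the 5 *Mylip* substrates and *Apoe* receptors described, of which 4 were tested, *Sorl1*, a sorting receptor, rose by 0.66 ± 0.18, 0.61 ± 0.17 and 1.04 ± 0.15 on the log2 scale in SPF, GF and ABX 5xFAD mice, and *Scarb1*, the HDL receptor, by 0.86 ± 0.13, 0.72 ± 0.13 and 1.17 ± 0.12. *Lrp1* passed in ABX mice (0.33 ± 0.12, adjusted p = 0.0498, edgeR), a call that was lost with library size alone (0.134), with only the 2 groups fitted (0.0927) and without any 1 of most mice. In cholesteryl ester turnover, *Nceh1*, which hydrolyses the esters that *Soat1* makes, rose by 2.07 ± 0.13, 2.17 ± 0.13 and 1.92 ± 0.11, and *Lipa*, the lysosomal acid lipase, passed in GF (0.48 ± 0.091) and ABX mice (0.28 ± 0.082). *Nceh1* and *Lipa* were thus called in the same direction as *Soat1* in GF and ABX mice.

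Of the 15 other LXR target genes, 10 were tested, and 4, 7 and 5 were called in SPF, GF and ABX mice. Over all genes tested the called shares were 4.57%, 15.6% and 14.4% in this order. *Npc2*, a lysosomal cholesterol carrier, rose by 0.97 ± 0.12, 1.39 ± 0.12 and 0.95 ± 0.10, and the desaturase gene *Scd2* by 0.66 ± 0.16, 0.56 ± 0.15 and 0.68 ± 0.14. *Srebf1*, the master regulator of fatty acid synthesis, rose in GF (0.65 ± 0.16) and ABX mice (1.05 ± 0.15), as did the synthase gene *Fasn* (0.86 ± 0.25 and 1.55 ± 0.23). *Smpdl3a* rose in SPF (0.52 ± 0.14) and GF mice (0.66 ± 0.13). In the other direction, *Lpcat3*, which remodels phospholipids, fell in SPF (-0.35 ± 0.094) and GF mice (-0.31 ± 0.085), and *Mertk* in GF mice (-0.30 ± 0.093). Of the genes called in these 3 comparisons, *Lpcat3*, *Smpdl3a* and *Sorl1* in SPF mice, *Fasn*, *Mertk* and *Sorl1* in GF mice, and *Furin*, *Lipa* and *Lrp1* in ABX mice lost their call without at least 1 of the mice or in an alternative fit.

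*Pltp*, the phospholipid transfer protein gene, rose in ABX mice (3.59 ± 0.54, adjusted p = 1.98e-05), and it was the only one of the 39 genes called in a test of the difference between states, for ABX against GF mice at 3.17 ± 0.73, adjusted p = 0.0256 (edgeR). *Pltp* had group means of 0.762 CPM in ABX WT and 9.16 CPM in ABX 5xFAD mice. In GF mice its means were 3.24 CPM in WT and 4.34 CPM in 5xFAD, and in SPF mice 1.36 and 2.03 CPM. *Pltp* was also called lower in ABX than in GF WT mice (edgeR), so that WT mice enter the difference as well. The border-associated macrophage markers were 3.74 to 5.90 CPM in ABX WT and 32.8 to 242 CPM in ABX 5xFAD mice. Their part in the result was not tested. The difference was 3.93 with voomWithQualityWeights, and the call on it was lost when only the groups compared were fitted (0.0554) and without mouse FAD_GF_185 (adjusted p = 0.0526, edgeR). Of the 8 other exporters and carriers, 6 were tested and the transporter genes *Abca2* (1.14 ± 0.20) and *Abca3* (0.61 ± 0.15) passed, in ABX mice. Means of *Abca2* in ABX, SPF and GF mice were 69.2, 66.9 and 75.9 CPM for 5xFAD, and 31.4, 49.4 and 52.0 CPM for WT. Those of *Abca3* were 90.4, 93.9 and 85.0 CPM for 5xFAD, and 59.3, 80.4 and 79.0 CPM for WT. For both genes the ABX WT mean was thus the lowest of all groups. Of the 8 partners and inhibitors of *Lpl*, 5 were tested, and *Furin* passed in ABX mice (0.43 ± 0.13). Means of *Furin* in ABX, SPF and GF mice were 119, 107.9 and 124.8 CPM for 5xFAD, and 88.5, 108.3 and 120.9 CPM for WT. Of the 7 LXR and RXR partners, all were tested, and *Rxrg* passed in GF (3.58 ± 0.66) and ABX mice (1.92 ± 0.54), at group means of 0.486 to 5.69 CPM. The GF value of *Rxrg* was 4.97 without mouse WT_GF_231 and 4.69 with voomWithQualityWeights.

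For GF against SPF mice, 5 of the 39 genes were higher and 3 lower in 5xFAD mice, and 1 was higher in WT mice. The called shares of all genes tested were 12.8% and 1.62%. By direction, all genes tested gave 1066 higher and 896 lower calls in 5xFAD mice, and 626 and 1295 with library size alone. For WT mice they gave 133 and 115, and 117 and 117 with library size alone. In 5xFAD mice *Srebf1* (0.73 ± 0.18), *Scarb1* (0.64 ± 0.14), *Npc2* (0.54 ± 0.12), *Lmf1* (0.45 ± 0.14), which matures the lipase that *Lpl* encodes, and *Lipa* (0.35 ± 0.10) rose, and *Abca9* (-0.72 ± 0.18), *Ncoa2* (-0.59 ± 0.15), a coactivator gene, and *Mertk* (-0.33 ± 0.10) fell. In WT mice *Scarb1* rose (0.79 ± 0.12, adjusted p = 0.00133, edgeR). All 8 calls in 5xFAD mice but that of *Scarb1* were lost without mouse FAD_SPF_1148 (adjusted p 0.0545 to 0.147, edgeR), and the count of 8 ran from 1 to 12 over the alternatives and left-out mice. With gene length offsets *Ncoa2* was at -0.21 (adjusted p = 0.286) and *Lipa* at 0.29 (0.0531). *Lipa* and *Lmf1* were also lost with library size alone (0.101 and 0.0871) and no low-count filter (0.0945 and 0.0671), and *Lmf1* (0.0686) and *Mertk* (0.0554) with only the 2 groups fitted. For ABX against GF mice, 1 was higher and 4 lower in 5xFAD mice, namely *Abca9* (0.59 ± 0.15) and, lower, *Npc2* (-0.65 ± 0.10), *Nceh1* (-0.63 ± 0.11), *Smpdl3a* (-0.58 ± 0.12) and *Lipa* (-0.25 ± 0.081), and 6 were lower in WT mice. The called shares of all genes tested were 10.6% and 6.88% there. In 5xFAD mice these were 692 higher and 929 lower genes, and 1173 and 554 with library size alone. In WT mice they were 367 and 686, and 441 and 545 with library size alone. The 5 calls in 5xFAD mice ran from 3, when only the 2 groups were fitted, to 8, with DESeq2 or without FAD_GF_201, and the 6 in WT mice from 3, without WT_ABX_909 or WT_GF_229, to 10. The call on *Lipa* was lost with library size alone (0.198), no low-count filter (0.181), voomWithQualityWeights (0.0908), gene length offsets (0.0952) and only the 2 groups fitted (0.206), and without any 1 of most mice, and that on *Abca9* with only the 2 groups fitted (0.0849). For ABX against SPF mice 0 of the 39 were called by edgeR or DESeq2 in either genotype. By voomWithQualityWeights 1 was called in 5xFAD and 0 in WT mice. At an unadjusted p under 0.05 by edgeR there were 5 in 5xFAD and 9 in WT mice, beside 7.09% and 4.49% of all genes tested. The median log2 difference of the 39 genes was -0.19 in WT and -0.024 in 5xFAD mice, beside -0.00497 and 0.0119 over all genes tested.

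**Figure D5:**
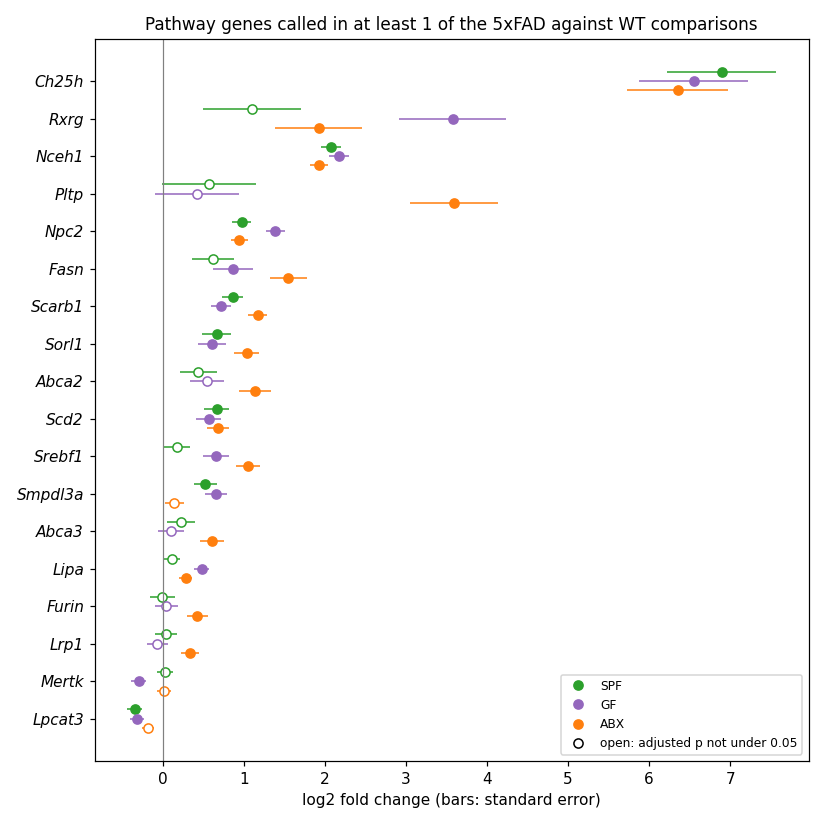
Log2 fold change in 5xFAD against WT mice of the 18 pathway genes described that were called in at least 1 microbial state, with the standard error as bars and filled points for adjusted p under 0.05. Ch25h lies at 6.89, 6.55 and 6.35 in SPF, GF and ABX mice, and Pltp lies at 3.59 in ABX mice.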

How the data were processed

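RNA of sorted hippocampal microglia from 28 mice was sequenced from SMARTer and Nextera XT libraries. The authors mapped the reads to GRCm38 with STAR 2.7.2 and counted them on GENCODE M21 with featureCounts 1.6.2, and deposited unnormalized counts of each gene. The kit does not mark strand, and the strand setting of the counting is not given in the sources used here. The 92 spike-in entries, with at most 12 reads a library, were left out. The table also holds gene lengths, used for values per kilobase.

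In R 4.3.3, edgeR 4.0.16 kept 15298 genes (filterByExpr, minimum count 10, minimum total 15), scaled counts by TMM and fitted 1 term per group over all 28 mice (quasi-likelihood test). Calls are at a p under 0.05 after Benjamini-Hochberg adjustment across the tested genes, and SE is the log2 fold change over the root of F. Log2 CPM used a prior count of 2. Marker sums refer to library totals. Exact two-sided permutation tests compared single genes. Group membership came from the labels. The procedure was tested on simulated data.

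The 10 genes, the pathway lists and the marker lists were chosen with earlier results of these data known. Named genes are the 10 genes, pathway genes past the threshold in a comparison of genotypes or of GF with SPF mice, and the 5 genes most like *Apoe*. The monocyte markers are named as well, which was decided after their values were seen. 1 gene of the pathway lists is not reported here and is left out of their counts. Genes named for ABX against GF mice and *Pltp* in the test of a difference were chosen after their values were seen. Alternatives were RLE factors, library size alone, no low-count filter, at least 10 reads in every library, DESeq2 1.42.0, voomWithQualityWeights of limma 3.58.1 (the method of the study), gene length offsets, fits of only the groups compared, leaving out each mouse, and leaving out mice FAD_ABX_1151 and FAD_ABX_1482. Figures were drawn with matplotlib 3.10.9.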

Additional observations from a re-analysis of the deposited data

Results flagged for a closer look

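In a test for single mice far from their group, made on the CPM of the 10 genes in the groups of 4 to 6 mice, 4 of 50 groups held such a mouse, where chance flags about 1 in 20. *Apoe* in mouse FAD_GF_201 was 5321 CPM, the lowest of 5 GF 5xFAD mice, the next being 9253 CPM, and this mouse is WT by its description. *Mylip* in mouse WT_SPF_936 was 457 CPM, the highest of 5 SPF WT mice, the next being 416 CPM. *Rxra* in mouse WT_GF_199 was 103 CPM, the highest of 4 GF WT mice, the next being 72.4 CPM. *Apoc1* in mouse FAD_ABX_1482 was 2.41 CPM from 37 reads, the highest of 6 ABX 5xFAD mice, the next being 0.908 CPM.

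*Pltp* differed between states in its 5xFAD effect, by 3.17 on the log2 scale for ABX against GF mice. Of the spike-in sequences, which no comparison uses, mouse WT_SPF_928 held 12 reads, more than the 3 that a count of 0 allows.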

How the results depend on the processing

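Of 25 calls on the 10 genes, 17 kept their side of the threshold under every alternative and left-out mouse, 8 lost it at least once, and none changed sign. The count of called genes became 5 for 5xFAD against WT SPF mice and 4 for GF against SPF WT mice with voomWithQualityWeights, and 4 for GF against SPF WT and 2 for ABX against GF 5xFAD mice when only the groups compared were fitted. Leaving out 1 mouse at a time gave 3 to 4 called genes for 5xFAD against WT in SPF mice, 4 to 5 in GF and 5 to 5 in ABX mice, 1 to 4 for GF against SPF in 5xFAD and 0 to 3 in WT mice, and 2 to 4 for ABX against GF in 5xFAD and 3 to 4 in WT mice. It gave 0 to 0 for ABX against SPF mice and for the differences of the effects. Without mice FAD_ABX_1151 and FAD_ABX_1482 the counts were 4, 5 and 5 for the genotype in SPF, GF and ABX mice, 4 for ABX against GF 5xFAD mice and 3 for GF against SPF WT mice.

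Reversals concerned differences that were not called. With library size alone, which shifts the median of all genes by -0.12 in GF 5xFAD against WT mice, *Abcg1* became -0.043 in SPF and -0.047 in GF mice and *Nr1h2* -0.035 and -0.099 for 5xFAD against WT, and *Soat1* -0.030 for GF against SPF 5xFAD mice. With voomWithQualityWeights, *Abca1* became 0.023, *Abcg1* -0.0086 and *Rxra* 0.028 in SPF and *Nr1h2* -0.0024 in GF mice for 5xFAD against WT, and *Apoc1* 0.46 for GF against SPF WT mice. With 1 mouse left out, 5xFAD against WT ranged from -0.034 to 0.22 (ABX) and -0.27 to 0.14 (SPF) for *Abca1*, -0.0055 to 0.040 (SPF) for *Abcg1*, -0.067 to 0.10 (GF) and -0.052 to 0.067 (SPF) for *Nr1h2*, -0.089 to 0.74 (SPF) for *Nr1h3* and -0.13 to 0.12 (SPF) for *Rxra*. GF against SPF ranged from -0.66 to 0.84 for *Apoc1*, -0.12 to 0.47 for *Nr1h3* and -0.042 to 0.18 for *Rxra* in WT, and -0.0043 to 0.13 for *Soat1* in 5xFAD mice. ABX against GF ranged from -1.23 to 0.043 for *Apoc1* and -0.023 to 0.62 for *Nr1h3* in 5xFAD, and -0.84 to 0.064 for *Nr1h3* in WT mice. The cause was not tested. The precision of counts this low, at most 38 reads a library for *Apoc1* and 74 for *Nr1h3*, is bounded by counting error. No paired analysis was possible because the groups share no replicate numbers.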
